A study of Mus musculus with 12 samples.

Results

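Stabilin-1 and stabilin-2 (genes Stab1 and Stab2) are large scavenger receptors on the surface of liver sinusoidal endothelial cells (LSECs), the fenestrated endothelium that lines the liver's capillaries and clears waste from the blood by endocytosis. Stabilin-2 is best known as the receptor that clears hyaluronan, and both bind modified lipoproteins and matrix fragments. The receptors share ligands, and the question addressed here is what the loss of Stab2 adds in LSECs that already lack Stab1. The tested pools were LSECs of mice lacking both receptors (Stab DKO, called DKO). They were set against LSECs of mice lacking Stab1 alone (Stab1KO), so that both groups share the loss of Stab1 and differ in Stab2. The members were chosen by their titles: the 3 arrays of double-deficient LSECs and the 3 of Stab1KO LSECs, or 6 of the 12 arrays of the series. The other 6 were 3 arrays of LSECs lacking Stab2 alone (Stab2KO) and 3 of wild-type LSECs (WT), which entered the fit for the shared estimate of spread. All mice were of the C57BL/6J strain and 3 to 4 months old, cells were captured from perfused livers with magnetic beads against the endothelial antigen CD146, and RNA was taken at once. Each array holds RNA pooled from 3 mice. The labels give neither the making of the alleles nor whether the groups were littermates, so a difference of colony cannot be told apart from the loss of Stab2. Values are log2 expression values from Affymetrix arrays, and a difference of 1 on this scale is 2-fold. Genes with a limma p under 0.05 after Benjamini-Hochberg adjustment over the 24011 genes tested are termed called. A log2 fold change is DKO minus Stab1KO and stands with its standard error (SE).

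The targeted genes followed the labels. Stab2 had log2 values of 6.89, 7.60 and 5.46 in the 3 DKO arrays, against 13, 12.99 and 13.02 in the 3 Stab1KO arrays. It was thus lower in every DKO array, by -6.36 ± 0.44 (limma, adjusted p = 0.00019), and an exact two-sided permutation test over the 3 and 3 arrays gave p = 0.1, the smallest it allows. Stab1 was low in both groups, at 5.44, 5.27 and 4.98 in DKO and 5.30, 5.45 and 5.16 in Stab1KO, and did not pass the test (-0.08 ± 0.12, adjusted p = 0.81). DKO replicate 3 stood apart from every other array. Its correlation with the other arrays across genes lay between 0.956 and 0.968, while no pair among the other 11 arrays was below 0.987. The mean over 23 neutrophil genes was 6.04, 6.45 and 11.38 log2 in DKO replicates 1, 2 and 3, against 5.39, 6.30 and 5.95 in Stab1KO. Ly6g, a surface antigen that defines mouse neutrophils, had 3.94, 3.80 and 11.65 in the same DKO arrays and 3.78, 3.96 and 3.71 in Stab1KO. All 23 neutrophil genes had a positive log2 fold change with a median of 2.23, 0 of them were called (4 had an unadjusted p under 0.05 in limma), and the median was 0.27 without DKO replicate 3. The counts of called genes by list and by region are therefore given with and without that array. Endothelial markers were high in all 6 arrays, with lower means in DKO replicate 3. Over 20 pan-endothelial genes the mean was 11.79, 11.78 and 11.44 in DKO and 11.82, 11.84 and 11.81 in Stab1KO. Cdh5, the cadherin of endothelial junctions, had 13.34, 13.50 and 13.31 in DKO and 13.38, 13.44 and 13.38 in Stab1KO, and the hyaluronan receptor Lyve1 lay at 12.86 or above in DKO and 12.68 or above in Stab1KO.

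DKO differed from Stab1KO in 227 genes, 0.945% of those tested, of which 131 were higher and 96 lower (0.546% and 0.4%). The rises were larger than the falls: 72 genes rose by at least 2-fold and 14 fell by as much. Without DKO replicate 3 the count was 357 genes (1.49%), 270 higher and 87 lower (1.12% and 0.362%). Of these, 168 genes (0.7%) were called with and without the array, 101 of them higher and 67 lower. The 3 DKO arrays did not overlap the 3 Stab1KO arrays in any of the 227 genes, which lie among 1651 genes (6.88%) wholly above and 3083 (12.8%) wholly below. All 227 kept their direction under each of 21 alternative settings. Groups without overlap nearly force that result, so it adds no support. The calls themselves were less stable, because the count was 22 without Stab1KO replicate 2, 28 without Stab1KO replicate 3 and 18 when the 6 arrays were fitted alone. Only 18 genes (0.075%) were called whichever of the 12 arrays was left out, 6 higher (Nt5dc3, Krt18, Kank1, Tspan8, Elf3 and Lsmem1) and 12 lower (Btnl9, Stab2, Olfr1396, Ass1, Rab3b, G3bp1, Star, Idh3a, Hexa, Celf4, Sult1a1 and Colec12).

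The largest fall among the called genes was not that of Stab2 but of Btnl9, a butyrophilin-like gene of the immunoglobulin superfamily on chromosome 11. It had log2 values of 4.64, 5.33 and 4.72 in DKO, against 11.68, 11.25 and 11.43 in Stab1KO, a difference of -6.56 ± 0.21 (adjusted p = 1.8e-07). The groups were about 6 log2 units apart, and each DKO value lay below 5.4. Olfr1396, an olfactory receptor gene 4 measured genes away from Btnl9, had 3.22, 3.82 and 3.78 in DKO and 8.33, 7.99 and 8.32 in Stab1KO. Its fall was -4.61 ± 0.32 (adjusted p = 0.00019). Ass1, which encodes argininosuccinate synthase of the urea cycle and of arginine synthesis, had 5.33, 5.42 and 5.36 in DKO against 8.13, 7.88 and 8.47 in Stab1KO (-2.79 ± 0.33, adjusted p = 0.0074). These 3 genes were called under every single-array omission.

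The other falls of 1 log2 unit or more were smaller. Sema3d, a secreted semaphorin that guides migrating cells, fell by 1.47 ± 0.21 (adjusted p = 0.016), and Rab3b, a small GTPase of secretory vesicles, by 1.32 ± 0.16 (adjusted p = 0.0074). G3bp1, an RNA-binding protein that nucleates stress granules, had 9.81, 9.5 and 9.81 in DKO against 10.77, 11 and 10.79 in Stab1KO, a fall of -1.15 ± 0.13. Star, which moves cholesterol into mitochondria for steroid synthesis, had 5.74, 6.01 and 5.42 in DKO and 7.05, 6.77 and 6.76 in Stab1KO (-1.14 ± 0.13). Both had an adjusted p of 0.0074 and no overlap between the groups. Cep83os (-1.62 ± 0.21), the uridine phosphorylase gene Upp2 (-1.02 ± 0.15) and Igsf23 (-1.02 ± 0.17) complete, with Hlf among the clock genes, the 12 largest falls of genes called with and without DKO replicate 3. Below that size, the Krebs cycle gene Idh3a (-0.97 ± 0.11), the RNA-binding gene Celf4 (-0.81 ± 0.10) and the phenol sulfotransferase gene Sult1a1 (-0.81 ± 0.08) were among those called without each array in turn.

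The largest rise among the called genes was that of Ankrd1, a nuclear cofactor known as a target of the mechanosensitive coactivators YAP and TAZ. It had 8.76, 8.24 and 8.77 in DKO against 6.10, 5.35 and 5.90 in Stab1KO, a rise of 2.81 ± 0.35 (adjusted p = 0.0091). Kank1, an adaptor between focal adhesions and the cytoskeleton, had 8.39, 8.56 and 8.17 in DKO and 6.44, 6.41 and 6.35 in Stab1KO (1.97 ± 0.15, adjusted p = 0.00034). The gap between the groups was wider than the range within either. Other large rises were those of Retreg1 (2.22 ± 0.43), a receptor for the autophagy of endoplasmic reticulum, Nabp1 (2.09 ± 0.30), which binds single-stranded DNA, and the pseudogene Olfr1372-ps1 (2.14 ± 0.37). Retreg1 was at 1.65 without DKO replicate 3. Its call (limma, adjusted p = 0.040) was lost without any 1 of the Stab1KO or WT arrays. Tspan8, a tetraspanin of epithelia, had 6.45, 6.25 and 7.28 in DKO against 4.92, 4.93 and 4.86 in Stab1KO (1.76 ± 0.21, adjusted p = 0.0086). Lsmem1 was nearly constant within each group, with 5.86, 5.84 and 5.85 in DKO and 4.69, 4.62 and 4.49 in Stab1KO (1.25 ± 0.13, adjusted p = 0.0042).

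**Figure D1:**
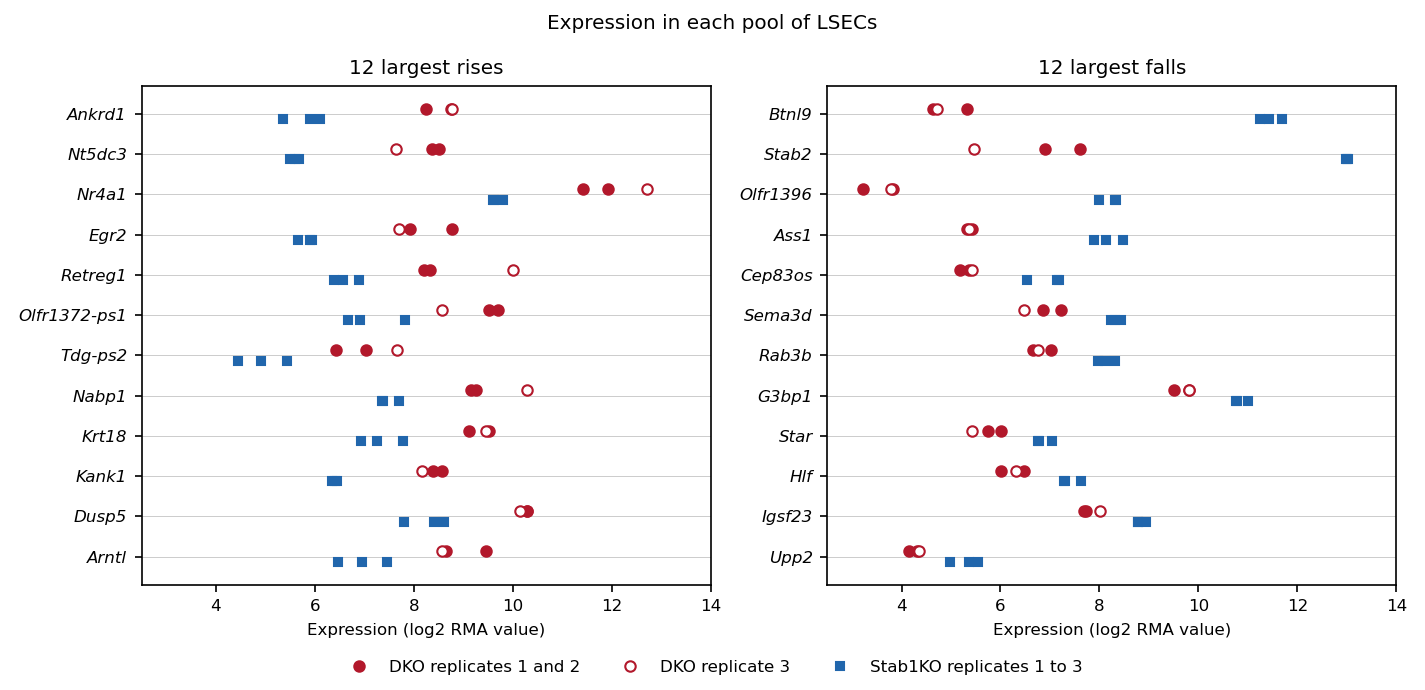
Log2 expression (x axis) of the 12 largest rises and 12 largest falls among genes called with and without DKO replicate 3. Red circles are DKO arrays (the open circle is replicate 3) and blue squares Stab1KO arrays, and the groups do not overlap in any of the genes; Btnl9 lies between 4.64 and 5.33 in DKO and between 11.25 and 11.68 in Stab1KO.

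Immediate early genes encode transcription factors and feedback regulators that are switched on within minutes of growth factor, stress or mechanical signals, without new protein synthesis, and the handling of tissue during cell isolation is known to induce them. Of 33 such genes, 9 rose and 0 fell, or 27.3% called against 0.945% of all genes. The median log2 fold change of the list was 1.04, against -0.03 over all genes, and 32 of 33 values were positive. The mean over the list was 10.32, 10.51 and 10.34 in DKO and 9.36, 9.11 and 9.32 in Stab1KO, so that all DKO arrays, replicate 3 included, lay about 1 log2 unit above all Stab1KO arrays. Pools of 1 genotype differed more in the other groups, with 9.28, 9.22 and 9.99 in Stab2KO and 9.16, 9.44 and 9.61 in WT. Without DKO replicate 3, 15 rose, 0 fell and the median was 1.17. The list had 0 calls without Stab1KO replicate 2 (median 0.90) or without Stab1KO replicate 3 (median 1.04), and 2 calls when the 6 arrays were fitted alone.

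Among the transcription factors, the zinc finger gene Egr2 had 7.93, 8.77 and 7.70 in DKO against 5.95, 5.90 and 5.66 in Stab1KO, a rise of 2.30 ± 0.35 (adjusted p = 0.020). The orphan nuclear receptor Nr4a1 had 11.42, 11.92 and 12.71 in DKO against 9.62, 9.59 and 9.81 in Stab1KO (2.34 ± 0.42, adjusted p = 0.031). Its relative Nr4a3 had 7.78, 8.48 and 9.25 in DKO against 5.69, 6.16 and 6.22 in Stab1KO (2.48 ± 0.46, adjusted p = 0.036). Both nuclear receptors were highest in DKO replicate 3, and Nr4a3 was no longer called without it (2.11, adjusted p = 0.055). Egr3 (1.61 ± 0.25) and the AP-1 subunit gene Fos (0.93 ± 0.17) also rose. Fosb and Egr1 were called only without DKO replicate 3, where they rose by 2.28 ± 0.42 and 1.70 ± 0.29 (adjusted p = 0.033 and 0.026). Among the feedback regulators, Dusp5, a phosphatase that inactivates ERK, had 10.28, 10.28 and 10.15 in DKO against 8.60, 7.80 and 8.41 in Stab1KO (1.96 ± 0.32, adjusted p = 0.027). The stress sensor Gadd45b had 11.45, 11.71 and 11.39 in DKO against 9.55, 9.47 and 9.74 in Stab1KO (1.93 ± 0.34, adjusted p = 0.029). Ier2 and Ier3, immediate early response genes, rose by 1.18 ± 0.20 and 1.15 ± 0.20.

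Promoters are printed for 3 of these genes because they rose together and because the sequence before the start shows which known response elements they carry. Each is the 250 bases before the start in RefSeq (GRCm38.p6, plus strand), for Nr4a1 chr15:101266596-101266845, for Nr4a3 chr4:48045055-48045304 and for Dusp5 chr19:53528895-53529144. Capitals mark TGACG or its reverse complement CGTCA, the core that CREB and ATF factors bind, and the CArG box, the element of serum response factor.
Nr4a1 promoter: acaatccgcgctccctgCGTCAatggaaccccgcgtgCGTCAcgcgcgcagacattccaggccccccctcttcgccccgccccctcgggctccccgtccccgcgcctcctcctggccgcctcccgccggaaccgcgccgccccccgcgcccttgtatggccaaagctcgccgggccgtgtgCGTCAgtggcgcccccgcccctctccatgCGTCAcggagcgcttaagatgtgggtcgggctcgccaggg
Nr4a3 promoter: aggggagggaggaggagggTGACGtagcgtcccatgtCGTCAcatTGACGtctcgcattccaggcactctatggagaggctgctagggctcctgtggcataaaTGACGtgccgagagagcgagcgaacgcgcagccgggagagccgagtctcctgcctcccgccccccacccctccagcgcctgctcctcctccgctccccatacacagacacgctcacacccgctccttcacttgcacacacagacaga
Dusp5 promoter: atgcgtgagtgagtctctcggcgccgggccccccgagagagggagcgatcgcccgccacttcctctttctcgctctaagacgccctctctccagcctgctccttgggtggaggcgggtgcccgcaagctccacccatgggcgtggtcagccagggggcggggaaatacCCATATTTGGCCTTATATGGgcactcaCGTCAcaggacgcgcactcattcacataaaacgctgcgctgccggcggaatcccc
The core TGACG occurs 4 times in the Nr4a1 window, 4 times in that of Nr4a3 and once in that of Dusp5, which also holds 2 CArG boxes side by side. Windows were given for 7 of the 9 immediate early genes that rose, with several starts for some genes. On either strand, TGACG was found for 5 of the 7 (Dusp5, Egr2, Fos, Nr4a1 and Nr4a3), where 17.8% of all 32851 windows hold it. The CArG box was found for 2 (Dusp5 and Egr2), where 1.47% of windows hold it. The palindrome TGACGTCA, which contains the core, was found for 0 of the 7 and in 1.55% of all windows. A gene was counted if any of its windows held the motif, while the percentages are per single window. The counts and the percentages are thus unlike measures. These matches describe the printed bases and were not tested.

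Inflammatory and interferon genes showed a weaker shift of the same direction. Of 26 NF-kB target and inflammation genes, 2 rose and 0 fell (7.69%), with a median of 0.75 and 25 positive values. Both are brakes or co-regulators of NF-kB. Tnfaip3, the ubiquitin-editing enzyme A20, had 10.44, 10.77 and 10.65 in DKO against 9.18, 8.80 and 9.15 in Stab1KO (1.58 ± 0.28, adjusted p = 0.029). Nfkbiz, an atypical nuclear IkB, had 11.07, 11.54 and 11.48 in DKO against 9.54, 8.91 and 9.24 in Stab1KO (2.13 ± 0.38, adjusted p = 0.033). Without DKO replicate 3, 4 of the list rose: Tnfaip3, the adhesion molecules Sele (2.36) and Vcam1 (0.94), and the chemokine Cxcl10 (1.92), while Nfkbiz did not pass (2.08, adjusted p = 0.050). Of 31 interferon-stimulated genes, 4 rose and 0 fell (12.9%, median 0.45). They were the oligoadenylate synthetase-like genes Oasl1 (1.44 ± 0.25) and Oasl2 (0.60 ± 0.11), the exonuclease gene Isg20 (0.68 ± 0.12) and the nucleotide kinase gene Cmpk2 (0.58 ± 0.11). Oasl1 had 8.04, 8.90 and 8.23 in DKO against 6.89, 7.0 and 6.97 in Stab1KO. Without DKO replicate 3, 7 rose and 0 fell. Neither list had a call without Stab1KO replicate 1, 2 or 3 or without DKO replicate 2, and the NF-kB list had none without DKO replicate 1.

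The mean level of genes of bile duct epithelium (cholangiocytes) was higher in every DKO array than in any Stab1KO array. Of 13 measured cholangiocyte genes 6 rose and 0 fell (46.2%), all 13 values were positive and the median was 1.28. The list mean was 7.46, 6.98 and 7.55 in DKO and 6.42, 5.78 and 6.10 in Stab1KO, and the 3 DKO arrays lay wholly above for 11 genes. Krt18 and Krt8 are the keratin pair of simple epithelia. Krt18 had 9.52, 9.12 and 9.45 in DKO against 7.78, 6.93 and 7.26 in Stab1KO (2.04 ± 0.23, adjusted p = 0.0074). Krt8 had 9.20, 9.0 and 9.11 in DKO against 7.82, 7.01 and 7.51 in Stab1KO (1.66 ± 0.27, adjusted p = 0.026). The groups did not overlap for either keratin. Sox9, the transcription factor of biliary progenitors, rose by 1.90 ± 0.32, and the mucin gene Muc1 by 1.73 ± 0.29. The cell adhesion genes Cdh1 (E-cadherin, 1.55 ± 0.27) and Epcam (1.44 ± 0.25) also rose. Outside the list, the epithelial transcription factor Elf3 had 5.81, 5.61 and 5.82 in DKO against 4.22, 3.94 and 4.05 in Stab1KO (1.67 ± 0.13, adjusted p = 0.00038). Bicc1, an RNA-binding gene of ductal epithelia, rose by 1.63 ± 0.27. Without DKO replicate 3, 5 of the 13 rose with a median of 1.31, and Epcam was at an adjusted p of 0.051. Krt18 alone was called without Stab1KO replicate 2, without Stab1KO replicate 3 or without DKO replicate 1, and 0 members were called when the 6 arrays were fitted alone. Of 25 genes of hepatocytes, the other epithelium of the liver, 0 were called (5 lower at an unadjusted p under 0.05 in limma), and the list mean was 7.51, 7.44 and 7.04 in DKO and 7.79, 6.86 and 8.23 in Stab1KO. In these bulk pools more cells of a type and more RNA per cell cannot be told apart, and the part of bile duct cells among the CD146 captures in these rises was not tested.

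**Figure D2:**
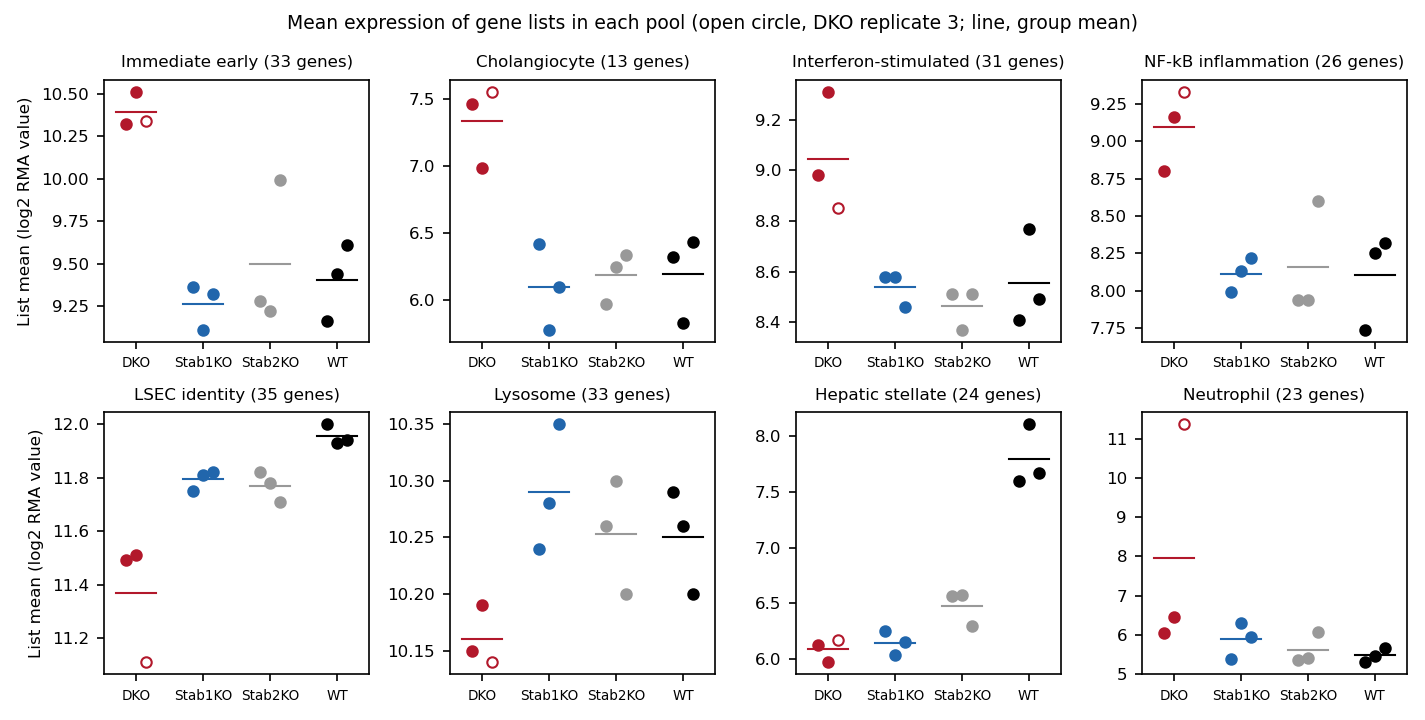
Mean log2 expression of 8 gene lists in each array (y axis) by genotype; points are pools, lines group means and the open circle DKO replicate 3. Immediate early means are 10.32 to 10.51 in DKO and 9.11 to 9.36 in Stab1KO, cholangiocyte means 6.98 to 7.55 and 5.78 to 6.42 in the same groups, and the neutrophil mean reaches 11.38 in DKO replicate 3 alone.

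Of 17 genes of the molecular clock, 3 passed the test. The clock is a loop in which BMAL1 (gene Arntl) with CLOCK or NPAS2 drives its own repressors and the PAR-domain output factors Dbp, Hlf and Tef. Arntl had 9.45, 8.64 and 8.57 in DKO against 6.47, 7.46 and 6.95 in Stab1KO, a rise of 1.93 ± 0.31 (adjusted p = 0.024). Hlf had 6.02, 6.48 and 6.31 in DKO against 7.62, 7.30 and 7.28 in Stab1KO, a fall of -1.13 ± 0.18 (adjusted p = 0.024). Tef had 5.58, 5.76 and 5.06 in DKO against 6.60, 6.27 and 6.36 in Stab1KO (-0.94 ± 0.18, adjusted p = 0.041). Thus 1 clock gene rose and 2 fell (17.6% of the list), with and without DKO replicate 3. Members that did not pass were Dbp (-1.40, adjusted p = 0.060), the repressor genes Cry2 (-0.96, 0.097) and Per3 (-0.93, 0.088), and Npas2 (0.75, 0.068). Clock was at 0.08 and Per1 at 0.25. The labels give no hour at which the livers were taken, so the time of day cannot be told apart from genotype. No clock gene was called without DKO replicate 1 or without any 1 of the Stab1KO arrays.

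The LSEC identity, scavenger receptor, lysosomal and endocytosis lists had medians below the -0.03 of all genes. Over the 14406 genes left by a filter on low signal the median was -0.077. Negative values were also the more common ones over all genes, at 58.6% (56.3% without DKO replicate 3). Of 35 LSEC identity genes 0 rose and 3 fell (8.57%), with a median of -0.21 and 32 negative values. The members that fell were Stab2 itself, Fam167b (-0.60 ± 0.09, adjusted p = 0.016) and Wnt2, the endothelial Wnt ligand that acts on neighbouring hepatocytes. Wnt2 had 10.29, 10.37 and 9.83 in DKO against 10.78, 11.07 and 10.96 in Stab1KO (-0.77 ± 0.15, adjusted p = 0.045), and was not called without DKO replicate 3 (-0.61, adjusted p = 0.054). Without that array the semaphorin receptor gene Plxnc1 was called in its place (-0.46, adjusted p = 0.030), and the median of the list was -0.09. The list mean shows the same array lowest: it was 11.11 in DKO replicate 3, against 11.49 and 11.51 in the other DKO arrays and 11.75 to 11.82 in Stab1KO. Pan-endothelial genes had 18 of 20 negative values and a median of -0.16, which was -0.05 with 14 negative values without DKO replicate 3. Genes of large-vessel endothelium had 21 of 27 positive values and a median of 0.22 (0.34 without DKO replicate 3), with a list mean of 9.35 to 9.59 in DKO and 9.06 to 9.24 in Stab1KO. None of the pan-endothelial or large-vessel genes was called with all arrays, and without DKO replicate 3 the large-vessel genes Sele and Vcam1 were. Among scavenger receptors, the class Stab2 belongs to, 2 of 33 fell and 0 rose (6.06%), with and without DKO replicate 3. The median of that list was -0.08, and -0.06 with Stab2 left out, close to that of the genes left by the filter. Stab2 itself was 1 of the 2. Its fall was given by the genotype, so the shares called of this list and of the LSEC list include the target. The second was Colec12, a collectin that binds oxidised lipoproteins and microbial sugars, with 7.55, 7.61 and 7.39 in DKO against 8.21, 8.31 and 8.27 in Stab1KO (-0.75 ± 0.09, adjusted p = 0.0074). Of 33 lysosomal genes 1 fell and 0 rose (3.03%), while 28 values were negative with a median of -0.20. It was Hexa, a subunit of beta-hexosaminidase, which trims sugars from glycolipids and glycosaminoglycans, with 10.32, 10.18 and 10.04 in DKO against 10.97, 10.99 and 11.10 in Stab1KO (-0.84 ± 0.09, adjusted p = 0.0072). Of 34 endocytosis genes 1 fell, the clathrin adaptor subunit Ap2s1 (-0.54 ± 0.09), and 28 values were negative with a median of -0.18. The hyaluronan list, with 19 genes of its synthesis, binding and breakdown, had Stab2 as its 1 called member and a median of 0.02. The lysosomal, endocytosis and hyaluronan lists had the same called genes without DKO replicate 3.

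Several other responses had a few members each. Of 16 YAP and TAZ targets 4 rose and 0 fell (25%): Ankrd1, Gadd45b, which is also on the immediate early list, the LIM adaptor Ajuba (0.99 ± 0.15) and the Hippo pathway scaffold Wwc1 (0.97 ± 0.17). The median of that list was 0.04, and 8 values were negative. Ccn1 was called as well without DKO replicate 3, which made 5, and the median was 0.11. Vegfa, the endothelial growth factor, was the 1 called gene of 24 in the hypoxia and VEGF list (4.17%, against 0.945% of all genes). It had 10.06, 9.87 and 10.09 in DKO against 8.85, 8.21 and 8.45 in Stab1KO (1.5 ± 0.23, adjusted p = 0.020). The median of the hypoxia and VEGF list was -0.09, and 14 values were negative. That list had 0 calls without DKO replicate 1, without Stab1KO replicate 2 or 3, or when the 6 arrays were fitted alone. Of 18 cholesterol and fatty acid genes 2 rose (11.1%), the squalene synthase gene Fdft1 (1.02 ± 0.14) and the desaturase gene Scd2 (0.98 ± 0.15). The hypoxia and the cholesterol list had the same called genes without DKO replicate 3. Prox1, the master transcription factor of lymphatic endothelium that hepatocytes also express, rose by 1.28 ± 0.22, the collagen crosslinking enzyme Lox by 0.62 ± 0.11 and the fibroblast matrix gene Dpt by 0.88 ± 0.12. Each was the 1 called gene of its list: 9 lymphatic (11.1%), 31 TGF-beta and matrix (3.23%) and 16 portal fibroblast and mesothelial genes (6.25%). The medians of these lists were 0.02, 0.01 and 0.20, with 4, 15 and 6 negative values. Without DKO replicate 3 the same genes were called, and Col8a1 was added in the matrix list. Hepatic stellate genes, by contrast, had 0 of 24 called and a median of -0.13, with a list mean of 5.97 to 6.17 in DKO and 6.03 to 6.25 in Stab1KO. None of the 18 Kupffer cell, 23 T and NK cell and 29 cell cycle genes was called. Their medians were -0.24, 0.26 and 0.04, and -0.11, 0.38 and -0.18 without DKO replicate 3. None of the stellate, Kupffer cell, T and NK cell or cell cycle genes was called without it either. At an unadjusted p under 0.05 in limma, 4 stellate, 3 Kupffer cell, 2 T and NK cell and 2 cell cycle genes passed, where 16.2% of all genes did.

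Leaving out DKO replicate 3 removed 59 calls and added 189. The 59 comprised 30 rises and 29 falls. By size they were led by the rises of Nr4a3, Nfkbiz, the extracellular matrix gene Sparcl1 (2.02 ± 0.38), the butyrylcholinesterase gene Bche (1.73 ± 0.32) and the choline transporter-like gene Slc44a3 (1.70 ± 0.30), and by the falls of Flrt1 (-1.05 ± 0.20), Pcdhga4 (-0.96 ± 0.19), the corepressor gene Tle1 (-0.87 ± 0.17), the respiratory complex I gene Ndufa12 (-0.82 ± 0.15) and Wnt2. Their values moved little: Sparcl1 was at 1.96 (adjusted p = 0.059) and Bche at 1.67 (adjusted p = 0.055) without the array. The 189 added calls were 169 rises and 20 falls. In 158 of the 169 rises DKO replicate 3 lay below both other DKO arrays, and in 86 it lay within or below the range of the Stab1KO arrays. These rises were chosen because they were called only without that array, so a low value in it is largely built in. Trim69, a ubiquitin ligase gene, had 8.90, 9.40 and 6.18 in DKO against 5.99, 5.15 and 4.91 in Stab1KO, so that it was at 2.81 with the array (adjusted p = 0.11) and 3.80 without it (adjusted p = 0.015). Mx2, an interferon-induced GTPase, had 8.73, 9.37 and 6.13 in DKO against 6.79, 6.60 and 6.58 in Stab1KO and was at 2.39 without the array (adjusted p = 0.003). Iqcn, Fam71a and Ckap2l showed the same order of arrays, with 3.15, 2.82 and 2.69 without it. The falls added were led by the glucocorticoid-induced chaperone gene Fkbp5 (-0.83), the peroxisomal thiolase gene Acaa1b (-0.82), the mitochondrial genes Nnt (-0.71) and Mrpl14 (-0.70) and the leukotriene A4 hydrolase gene Lta4h (-0.66).

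**Figure D3:**
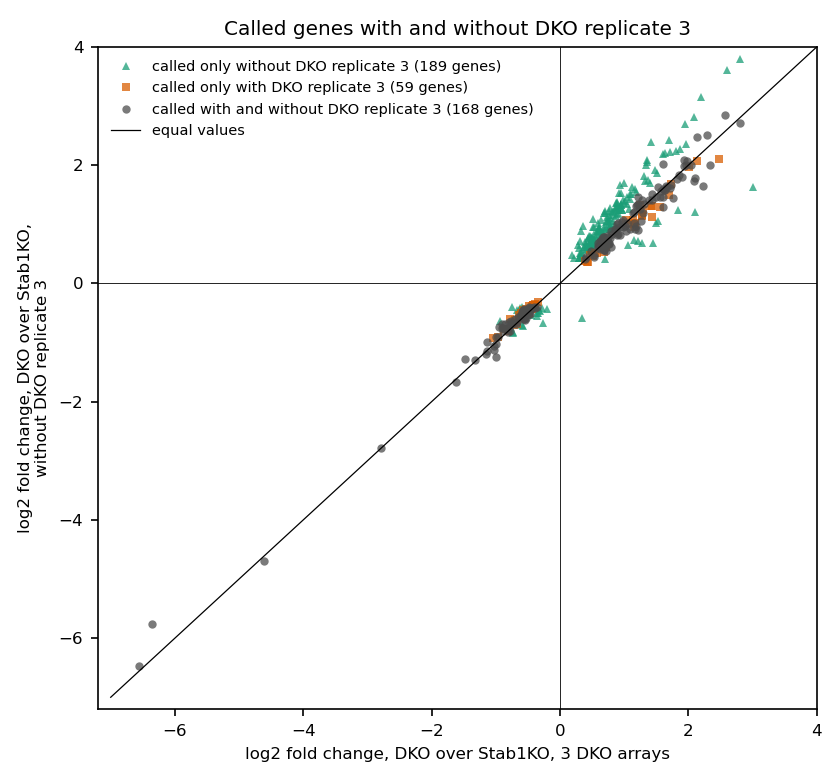
Log2 fold change of DKO over Stab1KO with all 3 DKO arrays (x axis) and without DKO replicate 3 (y axis) for the 416 genes called in either fit. The 168 genes called in both (grey circles) lie near the line of equal values, and most of the 189 called only without the array (green triangles) lie above it. The way the 189 were chosen favours that side of the line.

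The microRNA genes Mir23a, Mir27a and Mir24-2, which lie in 1 cluster on chromosome 8, were among the small RNA genes called with or without DKO replicate 3. They were chosen after their values were seen. The mature strands usually loaded into the silencing complex are shown so that their seeds can be compared, with the seed (bases 2 to 8), which pairs with targets, in capitals. The sequences are from RefSeq (GRCm38.p6, plus strand), at chr8:84208563-84208583, chr8:84208727-84208747 and chr8:84208875-84208896.
mmu-miR-23a-3p: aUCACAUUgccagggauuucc
mmu-miR-27a-3p: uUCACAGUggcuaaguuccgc
mmu-miR-24-3p: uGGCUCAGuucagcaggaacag
The 3 seeds all differ, so no seed family is shared. The array rows stand for the genes, not for the mature strands. Mir27a had 8.91, 9.56 and 8.03 in DKO against 7.33, 6.93 and 7.40 in Stab1KO, a rise of 1.61 ± 0.32 (adjusted p = 0.043) that was 2.01 without DKO replicate 3 (adjusted p = 0.0057). Mir23a had 9.10, 9.68 and 7.72 in DKO against 7.66, 6.86 and 7.05 in Stab1KO and was called only without that array (2.20 ± 0.34, adjusted p = 0.017). Mir24-2 had 4.61, 4.97 and 3.87 in DKO against 3.81, 3.95 and 3.85 in Stab1KO, again called only without it (0.92 ± 0.13, adjusted p = 0.011). Replicate 3 was the lowest DKO array for all 3 genes and lay within the Stab1KO range for Mir24-2. In all, 5 of 657 small RNA genes were called, a share near the 0.945% of all genes, and 10 without DKO replicate 3.

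The loss of Stab2 can also be read in the presence of Stab1, as Stab2KO against WT. Its fold changes use none of the 6 arrays compared above, but its standard errors and calls share the spread of all 12. There 71 genes were called (0.296%), 92 without DKO replicate 3 and 33 to 92 over the single omissions. Of the 227 genes, 9 were called there with the same sign. Stab2, Nt5dc3, Tdg-ps2, 1700113H08Rik and Cep83os lie on chromosome 10, and Ass1, Cavin3, Wdfy1 and Snord92 on other chromosomes. The part of the targeted allele in the values of the other genes on chromosome 10 was not tested. Ass1 differed by -2.79 ± 0.33 between DKO and Stab1KO and by -2.54 ± 0.33 between Stab2KO and WT. Nt5dc3 differed by 2.58 ± 0.19 and 2.72 ± 0.19 in the same contrasts, and Tdg-ps2, a pseudogene of the DNA glycosylase gene Tdg with which it may share probes, by 2.10 ± 0.32 and 2.03 ± 0.32. Over the 131 rises the median was 1.13 without Stab1 and -0.02 with Stab1, where 62 values were above 0. Over the 95 falls other than Stab2 the medians were -0.60 and -0.04, with 56 values below 0 when Stab1 was present. The rises and falls were chosen by their calls in DKO against Stab1KO, so the medians without Stab1 are large by that choice. Medians set side by side in this way cannot show that the effects differ.

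The difference between these Stab2 effects was tested in the same limma fit and called 12 genes (0.05%), 7 of which were also called between DKO and Stab1KO. Btnl9 was the largest, at -5.74 ± 0.30 (adjusted p = 2.7e-05): its mean was 4.90 in DKO and 11.45 in Stab1KO, but 10.86 in Stab2KO and 11.67 in WT. Olfr1396 followed at -3.55 ± 0.45 (adjusted p = 0.025). Kank1 had values of opposite sign, 1.97 in DKO against Stab1KO and -0.86 ± 0.15 in Stab2KO against WT (adjusted p = 0.052), and the difference was 2.84 ± 0.21 (adjusted p = 0.00072). The difference was positive for Elf3 (1.52), Lsmem1 (1.35) and Gm13748 (1.32), which rose without Stab1 and were at 0.15, -0.10 and -0.44 with it. It was negative for Sult1a1 (-0.89), which fell without Stab1 and was at 0.08 with it. None of these 4 genes was called in Stab2KO against WT. Btnl9, Kank1 and Lum were called in this difference whichever array was left out, and the count was 112 without DKO replicate 3. A difference of effects that misses this test is not shown to be equal.

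**Figure D4:**
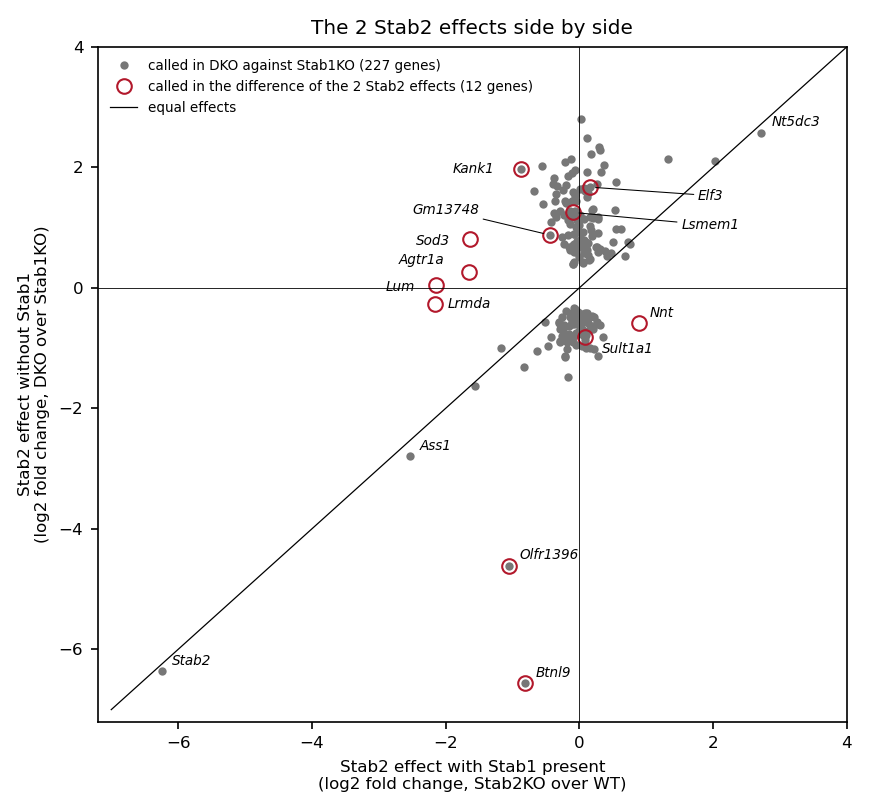
Log2 fold change of Stab2 loss without Stab1 (DKO over Stab1KO, y axis) against that with Stab1 present (Stab2KO over WT, x axis). Points are the 227 genes called in DKO against Stab1KO, and red rings the 12 genes called in the difference; Stab2, Nt5dc3 and Ass1 lie near the line of equal effects, while Btnl9 lies at -6.56 on the y axis and -0.82 on the x axis.

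Genes beside a targeted locus can differ because of the allele itself or of strain sequence carried with it, so position was examined. Within 20 Mb of Stab2 on chromosome 10, 10 of 435 genes were called (2.3%), 7 higher and 3 lower. The count was 15 without DKO replicate 3 (3.45%, against 1.49% of all genes), 10 higher and 5 lower. The nearest were its direct neighbours: Nt5dc3, a nucleotidase-domain gene, had 8.50, 8.36 and 7.63 in DKO against 5.67, 5.49 and 5.6 in Stab1KO (2.58 ± 0.19, adjusted p = 0.00026), and 1700113H08Rik rose by 0.73 ± 0.13. Beyond them lay Nr2c1 (-0.56), Ndufa12, Cep83os and Btg1 (1.10) on one side and Gadd45b, Fstl3 (0.80), Bicc1 and Egr2 on the other. Several of these belong to lists described above, so position and response cannot be told apart for them. Nt5dc3, 1700113H08Rik and Cep83os were also called, with the same sign, in Stab2KO against WT. Chromosome 10 as a whole had 21 of 1104 genes called (1.9%), and 31 without DKO replicate 3 (2.81%). Among the autosomes the next shares with all arrays were those of chromosomes 19 and 18 (1.71% and 1.53%). Without DKO replicate 3 they were at 2.1% and 2.88%, so that chromosome 18 lay above chromosome 10. Around Stab1, which both groups lack, 3 of 332 genes were called (0.904%), or 2 without that array, and its neighbour Nt5dc2 did not pass (-0.51 ± 0.14, adjusted p = 0.10).

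A window around Btnl9 was examined after its value was seen. Within 20 Mb, 9 of 471 other genes were called (1.91%), 2 higher (Wwc1 and Olfr1372-ps1) and 7 lower. The count was 15 without DKO replicate 3 (3.18%), 9 higher and 6 lower, and 8 genes were called both ways. The 7 lower with all arrays were Olfr1396, the glycosyltransferase gene Mgat1 (-0.90 ± 0.14), the leukotriene C4 synthase gene Ltc4s (-0.81 ± 0.12), the copper chaperone gene Atox1 (-1.0 ± 0.19), Cdc42se2 (-0.49 ± 0.09), G3bp1 and the adaptor gene Grap (-0.52 ± 0.10). Mgat1, 2 genes from Btnl9, had 7.82, 7.59 and 7.26 in DKO against 8.40, 8.34 and 8.64 in Stab1KO. The 3 genes between Olfr1396 and Btnl9 were not called, and the gene on the other side, Zfp62, was not called either. Chromosome 11 had 19 of 1809 genes called (1.05%), close to the share of all genes, and 34 without DKO replicate 3 (1.88%).

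**Figure D5:**
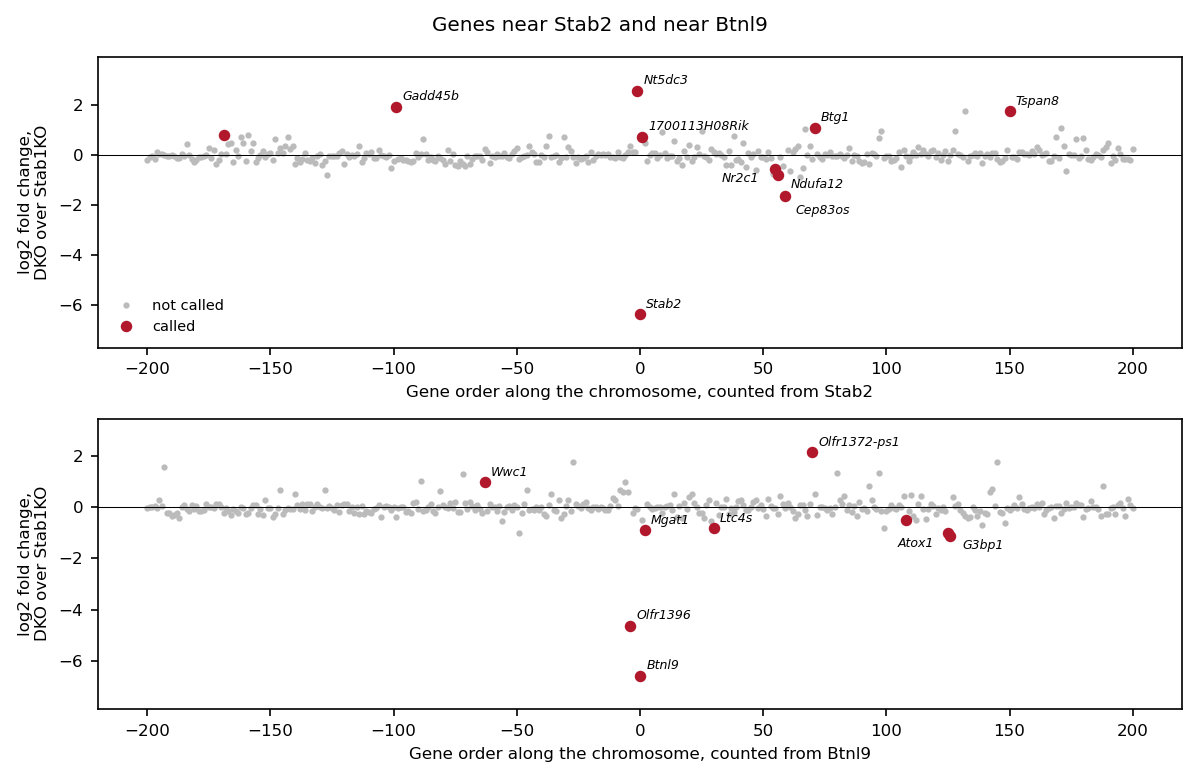
Log2 fold change of DKO over Stab1KO (y axis) of the genes around Stab2 (top) and around Btnl9 (bottom), in order along the chromosome (x axis, genes counted from the named gene at 0). Red points are called genes; Nt5dc3 stands beside Stab2, and Olfr1396 stands 4 genes from Btnl9.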

How the data were processed

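RNA of CD146-selected mouse LSECs from 4 genotypes was measured on 12 Affymetrix arrays, 3 a group, each a pool of 3 mice. The deposited values are log2 expression values, and the submitters' processing notes name RMA (background correction, quantile normalization and probe summaries). A version and a genome build are not given in the sources used. The sorted values of 11 arrays were identical. Values ran from 2.94 to 13.87 with a median of 5.11 in each array. No detection calls were used, so no gene is called absent, and the number of arrays limits the precision. No scan date or slide was used, so such batches were not tested.

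Of 24973 rows, 24015 had 1 symbol in the platform annotation and 958 are unnamed here. For repeated symbols the row with the highest mean was kept, which left 24011 genes. RefSeq (GRCm38.p6) gave gene order and sequences only. Promoter windows and mature microRNAs were matched by symbol or name.

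One linear model with 4 group means over 12 arrays was fitted with limma 3.58.1 in R 4.3.3 (lmFit and eBayes, no trend), and p-values were adjusted by Benjamini-Hochberg over all genes within a contrast. The contrasts were DKO minus Stab1KO, the same without DKO replicate 3, Stab2KO minus WT, and the difference between these Stab2 effects. Every adjusted p given is from limma. The fit was tested on simulated data. The pools are separate biological replicates per the labels.

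The comparison and the 38 gene lists (722 of 763 genes measured) were chosen with earlier results of these data known. Named genes were Stab1, Stab2, Nt5dc2 and Nt5dc3, the 12 largest rises and 12 largest falls called with and without DKO replicate 3 without overlap, 5 of each called in only 1 of those fits, up to 4 called members of a list, the 8 largest in the difference between Stab2 effects and called genes within 20 Mb of Stab2. Genes named because no omitted array removed their call, further list members, genes near Btnl9 and microRNAs were chosen after their values were seen. Alternatives were 9 other settings and the omission of each of 12 arrays.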

Additional observations from a re-analysis of the deposited data

Results flagged for a closer look

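The Stab2 effect without Stab1 (DKO minus Stab1KO) differed from that with Stab1 (Stab2KO minus WT) for 12 genes by limma's test of the difference, and each value here is the first effect minus the second. It was negative for Btnl9 (-5.74), Olfr1396 (-3.55), Nnt (-1.47) and Sult1a1 (-0.89). It was positive for Kank1 (2.84), Sod3 (2.45), Lum (2.20), Agtr1a (1.90), Lrmda (1.89), Elf3 (1.52), Lsmem1 (1.35) and Gm13748 (1.32). For Lum, a matrix proteoglycan, the means were 3.78 in DKO and 3.72 in Stab1KO, and 4.19 in Stab2KO and 6.33 in WT, so the difference came with a fall of -2.14 in Stab2KO against WT and a value of 0.06 between DKO and Stab1KO. Agtr1a was likewise highest in WT, with means of 5.93 in DKO, 5.67 in Stab1KO, 5.86 in Stab2KO and 7.50 in WT. Sod3 had 7.98 in DKO and 7.16 in Stab1KO, which did not pass (0.82 ± 0.20, adjusted p = 0.088), and 7.85 in Stab2KO and 9.48 in WT. The stellate list, which holds Lum and Sod3, had means of 6.09 in DKO, 6.14 in Stab1KO, 6.47 in Stab2KO and 7.79 in WT, and its part in the values of Lum, Agtr1a and Sod3 was not tested. Lrmda was low in Stab2KO alone, with means of 8.15 in DKO, 8.41 in Stab1KO, 6.31 in Stab2KO and 8.46 in WT. Nnt, the mitochondrial transhydrogenase gene that is partly deleted in the C57BL/6J substrain, had 8.28, 8.46 and 8.78 in DKO, 9.08, 8.96 and 9.21 in Stab1KO, and means of 8.84 in Stab2KO and 7.95 in WT.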

How the results depend on the processing

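The 227 genes kept their direction under all 21 alternatives, which the lack of overlap between the groups nearly forces. Of them, 18 kept their call without each array and 8 under every alternative. The count was 466 with array weights, which gave DKO replicate 3 a weight of 0.254, 86 with a required log2 change of 1, 18 in the 6 arrays alone and 150 in 5 arrays without DKO replicate 3. Leaving out 1 array gave 22 to 357 genes: 115 without DKO replicate 1, 22 and 28 without Stab1KO replicates 2 and 3, 123 without Stab2KO replicate 1 or 2 and 112 without WT replicate 3. The rises numbered 302 with array weights, 72 with the required change and 14 in 6 arrays (9 to 270 without 1 array). The falls numbered 164, 14, 4 and, in 5 arrays, 21 (13 to 109 without 1 array). The difference between Stab2 effects called 28 genes after a filter on low signal, 35 with trend and robust options, 199 with array weights and 6 with the replicate block, and 3 to 112 without 1 array, among them 112 without DKO replicate 3 and 56 without Stab2KO replicate 3. It has no value where Stab2KO and WT are left out. The low signal filter, trend and robust options, further quantile normalization and all rows gave 229 to 273 genes for DKO against Stab1KO. Uncalled genes changed sign: Stab1 (-0.08) was at 0.01 with array weights and at 0.05 without DKO replicate 3, also among the compared arrays alone (-0.18 to 0.05 over single omissions). The stellate gene Steap4 (0.68) was at -0.07 and -0.33 in the same settings (-0.33 to 1.27). Of 71 called genes the text could name, 56 lost the call without Stab1KO replicate 2 and 55 without Stab1KO replicate 3. The cause of these changes was not tested. Replicate numbers are shared between groups. Same-numbered DKO and Stab1KO arrays correlated at 0.24, -0.064 and 0.055 in their deviations from group means, and other pairs at -0.225 to 0.147. Such values cannot show whether the arrays share a batch, because the deviations within a group depend on each other. With the replicate block 270 genes were called, 179 of them among the 227. Faint signals near the lower end limit what small log2 differences show.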

Other observations

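Of 22 genes on a list of endoplasmic reticulum stress, 1 rose with all arrays and 4 without DKO replicate 3 (Retreg1, Atf4, Ddit3 and Dnajb9). The 1 was Retreg1, the receptor for the autophagy of endoplasmic reticulum. The median was -0.12 with 13 negative values, and -0.10 with 12 without that array. Atf4, a transcription factor of the stress response, was at 0.78 without that array (limma, adjusted p = 0.026) and at 0.65 with it (adjusted p = 0.067). Its target Ddit3 was at 0.91 (adjusted p = 0.048), and Bag3, a cochaperone and the 1 of 11 heat shock genes called without that array, had 10.70, 10.81 and 9.72 in DKO against 9.51, 9.53 and 9.52 in Stab1KO, 1.23 without that array (adjusted p = 0.041). Id1 and Id2, which respond to bone morphogenetic proteins, were at 0.52 and 0.59 without that array (adjusted p = 0.049 and 0.048). They were the 2 called of 26 bone morphogenetic protein and Wnt genes in that fit, where the list had 14 negative values and a median of -0.01. The tissue factor gene F3, which starts coagulation, had 6.18, 6.47 and 8.10 in DKO against 5.21, 5.18 and 4.85 in Stab1KO. It was at 1.84 with replicate 3 (adjusted p = 0.061) and 1.25 without it (adjusted p = 0.013). Notch2, a receptor of the Notch pathway, had 8.08, 8.01 and 9.84 in DKO against 7.28, 7.32 and 7.48 in Stab1KO and was at 0.68 without replicate 3 (adjusted p = 0.013). In that fit F3 was the 1 called of 17 coagulation genes (median 0.07, 7 negative values). Notch2 was the 1 called of 18 Notch genes (median 0.19, 4 negative values). Of all genes, 1.49% were called in that fit. These genes were chosen after their values were seen.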
